A study of Mus musculus with 48 samples.

Results

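Genes that mark T cells, natural killer (NK) and other cytotoxic lymphocytes, and B cells were followed in the livers of 48 mice fed diets of different composition. The list held 38 genes. Each gene was read from the brightest of its probe sets that carry a single symbol, judged by the mean over all arrays. Such a probe set existed for 37 of the 38, among 22180 genes in all; Lck, a kinase next to the T cell receptor, had none. The 37 were 15 T cell genes, 15 NK and cytotoxic genes and 7 B cell genes. All 37 passed the filter on low values (a mean log2 value above 1.17), with and without the mouse set apart below.

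Mice of both sexes, 3 to a cage, ate their diet without restriction from 3 weeks of age, and 1 mouse of a cage was taken for its liver at 15 months. The labels give neither strain nor the sex of each mouse. Liver RNA of each mouse was hybridized to an Affymetrix array of its own. A diet is written as protein/carbohydrate/fat, each in percent of its energy, at a high, medium or low energy density. At high energy, 2 mice ate 5/20/75, 4 ate 5/48/48, 4 ate 5/75/20, 4 ate 14/29/57, 2 ate 14/57/29, 3 ate 23/38/38, 2 ate 23/65/12, 2 ate 33/20/47, 2 ate 33/47/20, 1 ate 42/29/29 and 3 ate 60/20/20. At medium energy, 1 mouse ate 14/29/57, 2 ate 14/57/29, 3 ate 23/38/38, 3 ate 33/20/47, 2 ate 33/47/20 and 3 ate 42/29/29. At low energy, 1 ate 23/38/38, 1 ate 42/29/29 and 3 ate 60/20/20. By protein share this made 10 mice at 5%, 9 at 14%, 9 at 23%, 9 at 33%, 5 at 42% and 6 at 60%. All mice at 5% protein were on high energy diets.

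T cells recognise antigen through a receptor whose signal is carried inside by the CD3 chains. The kinase ZAP-70 binds the phosphorylated chains and passes the signal on through the adaptor LAT, while CD4 or CD8 holds the receptor to its MHC partner. NK cells and cytotoxic T cells kill by releasing perforin and granzymes, and the liver is known to hold many of both. B cells signal through CD79A and CD79B, the chains that accompany surface immunoglobulin. In whole liver RNA, fewer cells of a type and less RNA per cell cannot be told apart.

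The 37 genes were among the middling and dim genes of these arrays. Their mean log2 values lay between 1.18 for Cxcr6 and 4.57 for Ccl5, at the 24.7th and 68.0th percentile of all genes, so that most differences were read from low signals. The array medians ranged from 1.57 to 1.86 and their interquartile ranges from 2.78 to 3.63. Defining markers of the lymphocytes (Cd3e, Nkg7, Cd79a) were measured in every liver, the lowest values being 2.46, 1.77 and 1.90. The array carries no call of presence, and the sources used here do not give the authors' background correction.

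Of the 38 listed genes, 26 had an upstream sequence in the RefSeq table of GRCm38.p6, with 30 windows of 250 bases ending at a gene start. Windows are shown for the genes that the results below turn on, 5′ to 3′ in the direction of the gene. They are Nkg7 and Prf1 for the carbohydrate and fat shares, Prf1 and Zap70 for protein, and Gzma for a single mouse. Capitals mark a match to one of 4 motifs searched on both strands: the T-box core AGGTGTGA, the RUNX core TGTGGTTT, the EBF1 core CCCNNGGG and the octamer ATTTGCAT.
Nkg7 (chr7:43436888-43437137, plus strand): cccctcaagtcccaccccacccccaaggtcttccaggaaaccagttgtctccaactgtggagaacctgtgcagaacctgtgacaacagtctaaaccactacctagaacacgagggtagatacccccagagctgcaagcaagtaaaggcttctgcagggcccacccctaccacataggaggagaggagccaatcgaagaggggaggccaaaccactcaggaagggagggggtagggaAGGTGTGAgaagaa
Prf1 (chr10:61297586-61297835, plus strand): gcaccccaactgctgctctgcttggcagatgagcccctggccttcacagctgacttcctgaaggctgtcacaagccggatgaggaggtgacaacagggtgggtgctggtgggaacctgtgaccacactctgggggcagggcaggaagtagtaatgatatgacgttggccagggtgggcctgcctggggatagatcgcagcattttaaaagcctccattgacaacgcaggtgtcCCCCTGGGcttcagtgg
Gzma (chr13:113100982-113101231, minus strand): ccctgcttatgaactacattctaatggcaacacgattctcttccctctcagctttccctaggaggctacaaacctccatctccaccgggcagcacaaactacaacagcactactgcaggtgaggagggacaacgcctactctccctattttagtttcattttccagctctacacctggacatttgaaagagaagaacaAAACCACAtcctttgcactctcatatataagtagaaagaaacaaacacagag
Zap70 (chr1:36761548-36761797, plus strand, the most upstream of its 3 windows): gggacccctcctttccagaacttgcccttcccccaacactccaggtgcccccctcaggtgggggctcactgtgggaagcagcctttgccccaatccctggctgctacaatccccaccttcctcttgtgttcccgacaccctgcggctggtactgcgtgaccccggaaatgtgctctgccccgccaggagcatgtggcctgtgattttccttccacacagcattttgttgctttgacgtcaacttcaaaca

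The T-box core lay 14 bases before the start of Nkg7, a granule membrane protein of cytotoxic cells, and in no other of the 12 NK and cytotoxic genes with a window; it lay in 1.12% of all 32851 windows. The RUNX core lay 52 bases before the start of Gzma, on the opposite strand, and in 1.49% of all windows. The EBF1 core, present in 11.8% of all windows, was found upstream of Prf1, Cd27, Cd22 and at another start of Zap70, and the octamer, in 1.6% of all windows, in no member. No window shown held matches to more than 1 motif. A match is a description of the letters, not of a bound site.

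The first question was how the genes moved with the protein share. Across the 48 mice, Zap70 rose with protein, and Il2rb and Prf1 fell. No B cell gene passed the threshold. Values are read as log2. The measure is the protein slope, the difference in log2 value that goes with 10 more points of protein, taken evenly out of the carbohydrate and fat shares, in a limma model that also held the exchange of carbohydrate against fat and the energy level. A gene was called at an adjusted p under 0.05, with Benjamini-Hochberg adjustment over all 16926 genes tested. Of those, 1187 were called, 7.01%, with 3.37% higher and 3.65% lower. Of the 37 members 3 were called, 1 higher and 2 lower, a share near that background.

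Zap70 was lowest in the mice on 5% protein. Its log2 value there ran from 2.15 to 2.80 with a median of 2.43 (n = 10). At 14% it ran from 2.33 to 3.30 (median 2.64, n = 9), at 23% from 2.47 to 3.78 (median 2.87, n = 9) and at 33% from 2.84 to 4.25 (median 3.31, n = 9). At 42% the 5 mice ran from 2.85 to 4.17 (median 3.51), and at 60% the 6 mice from 2.50 to 3.93 (median 3.07). Every mouse at 33% and 42% protein lay above every mouse at 5%, while the 5% and 60% mice overlapped. The slope was 0.175 ± 0.041 (SE; adjusted p = 0.00826, limma over 48 mice).

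Il2rb, the beta chain of the receptor for interleukins 2 and 15, was highest at 5% protein. Its values there were 2.06 to 4.58 with a median of 3.56 (n = 10). They were 2.16 to 4.94 at 14% (median 2.96, n = 9), 1.91 to 3.15 at 23% (median 2.55, n = 9), 2.16 to 2.92 at 33% (median 2.39, n = 9), 1.87 to 3.38 at 42% (median 2.74, n = 5) and 2.48 to 3.09 at 60% (median 2.65, n = 6). The range at 5% overlapped that at every other share, its lowest mouse being at 2.06. The slope was -0.198 ± 0.054 (SE; adjusted p = 0.0210 by limma).

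Prf1, which encodes perforin, ran from 0.94 to 3.04 at 5% protein (median 1.73, n = 10) and from 0.80 to 1.60 at 60% (median 1.21, n = 6). At 33% the range was 0.97 to 1.55 (median 1.15, n = 9), so the shares overlapped. Its slope was -0.122 ± 0.040 (SE; adjusted p = 0.0484 by limma), the call nearest to the threshold. Without the medium energy 14/29/57 mouse described below, the slopes were 0.168 for Zap70 (adjusted p = 0.0108) and -0.171 for Il2rb (adjusted p = 0.0262), while Prf1 was no longer called (-0.101, adjusted p = 0.0658). In those 47 mice 7.62% of all genes were called. Within the 29 high energy mice Il2rb alone was called, and Zap70 had 0.153 (adjusted p = 0.0619).

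**Figure D1:**
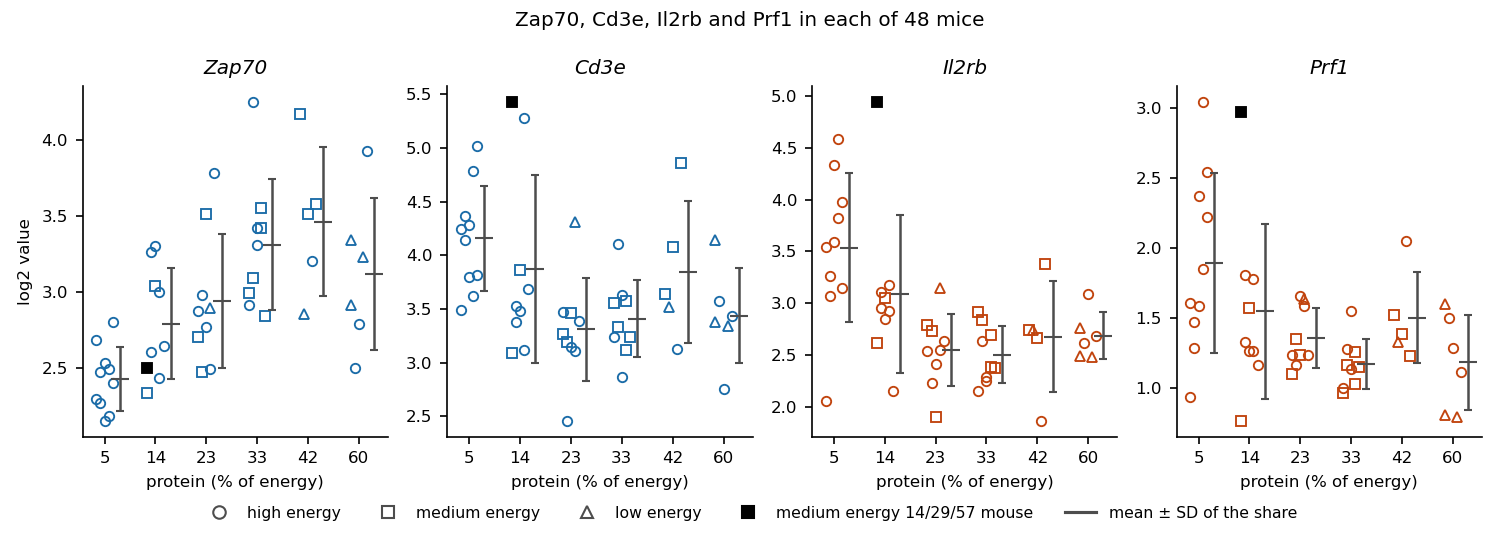
Log2 value of Zap70, Cd3e, Il2rb and Prf1 in each of 48 mice against the protein share of the diet (% of energy); marker shape gives the energy level, the filled square the medium energy 14/29/57 mouse, and bars the mean ± SD of each share. Zap70 was lowest at 5% protein (mean 2.42), and Il2rb highest there (3.54).

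Over all 15 T cell genes, Zap70 included, the median slope was -0.018 against -0.002 over all genes, and 10 of 15 were below 0. Cd3e, a signalling chain of the T cell receptor, had -0.165 ± 0.056 (SE; adjusted p = 0.0598 by limma). Its values were 3.49 to 5.02 at 5% protein (median 4.19) and 2.76 to 4.14 at 60% (median 3.41), and the shares overlapped. Cd8b1, the beta chain of CD8, had -0.087 (adjusted p = 0.0761) and Cd3g, another CD3 chain, -0.147 (adjusted p = 0.138). The slope of Cd4, the helper T cell co-receptor, was 0.0005 ± 0.042. Cd3d, the remaining CD3 chain measured, had -0.0245 (adjusted p = 0.640), so that of these chains none passed the threshold.

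Among the 15 NK and cytotoxic genes the median slope was -0.043 and 13 were below 0, against 51.2% of all genes. The median was -0.021, with 11 below 0 (50.5% of all genes), when the medium energy 14/29/57 mouse was left out. After Il2rb and Prf1 came Cxcr6, a chemokine receptor of liver-resident lymphocytes (-0.062, adjusted p = 0.140), and Ccl5, a chemokine released by cytotoxic cells (-0.157, adjusted p = 0.187). Nkg7 had -0.043 ± 0.051 and the granzyme genes Gzma -0.086 ± 0.094 and Gzmk -0.0034 ± 0.030. The 7 B cell genes had a median of -0.101 with 5 below 0, and of -0.107 with 6 below 0 when that mouse was left out. Cd22, an inhibitory receptor of B cells, had -0.121 (adjusted p = 0.0932), Ms4a1, which encodes CD20, -0.101 (adjusted p = 0.218) and Cd79b -0.111 (adjusted p = 0.222). Cd79b ran from 2.0 to 4.10 at 5% protein (median 2.37), from 2.78 to 3.94 at 42% (median 3.01) and from 1.43 to 2.61 at 60% (median 2.04). The 42% mice all lay above the 60% mice for Cd79b, so its course was not even along the protein axis.

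The set means, averages of log2 values centred per gene, showed that uneven course in each set. The mean over the T cell genes was 0.08 ± 0.31 at 5% protein (SD, n = 10), -0.12 ± 0.13 at 33% (n = 9), 0.23 ± 0.30 at 42% (n = 5) and -0.07 ± 0.14 at 60% (n = 6). For the NK and cytotoxic genes it was 0.08 ± 0.35, -0.09 ± 0.25, 0.11 ± 0.34 and -0.17 ± 0.15 at the same shares, and for the B cell genes 0.01 ± 0.39, -0.13 ± 0.21, 0.28 ± 0.29 and -0.22 ± 0.24. At 42% the 3 medium energy mice had a T cell mean of 0.40 ± 0.26 (SD), the high energy mouse -0.12 and the low energy mouse 0.07. The differences between shares were of the size of the spread within a share.

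**Figure D2:**
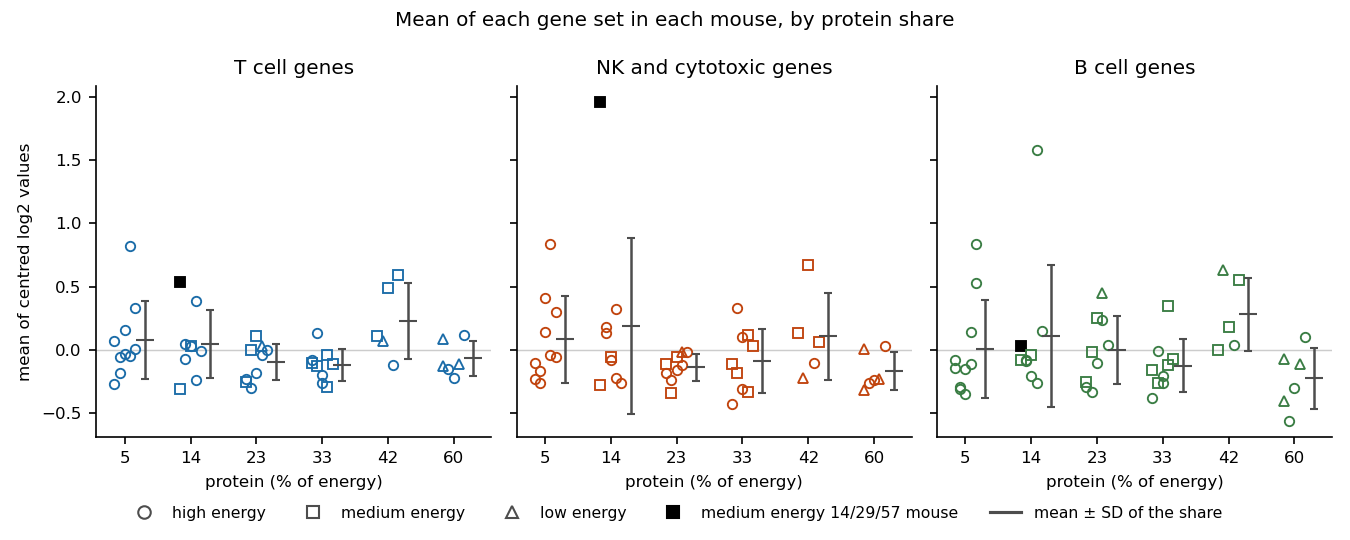
Mean of the centred log2 values over the T cell, NK and cytotoxic, and B cell genes in each mouse, by protein share (% of energy); marker shape gives the energy level and bars the mean ± SD of each share. The medium energy 14/29/57 mouse stands at 1.96 for the NK and cytotoxic genes, and 1 high energy 14/29/57 mouse at 1.58 for the B cell genes.

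Values for the spread of each array and for other cell types are given by protein as well. The interquartile range of the arrays had a median of 3.51 at 5% protein (3.22 to 3.63), 3.37 at 14%, 3.28 at 23%, 3.24 at 33%, 3.32 at 42% and 3.16 at 60% (2.88 to 3.43). With that range as a term in the model, 113 genes and 0 members were called. Zap70 then had 0.124 (adjusted p = 0.185 by limma), Il2rb -0.097 (adjusted p = 0.461) and Prf1 -0.089 (adjusted p = 0.435). All 18 measured leukocyte genes had negative protein slopes, with a median of -0.150 and 1 called, Itgal (-0.237, adjusted p = 0.0471). Their summed linear level ran from 447 to 873 at 5% protein (median 694) and from 390 to 556 at 60% (median 478), and none was below the filter. Without the medium energy 14/29/57 mouse 17 of 18 were negative, with a median of -0.101, 0 called by limma and 8 at an unadjusted p under 0.05. Of the 17 Kupffer cell genes 16 had negative slopes (median -0.098) and 0 were called by limma, with 3 at an unadjusted p under 0.05. Without that mouse 14 were negative (median -0.053) and Mpeg1 was called higher (0.155, adjusted p = 0.0333). Of 12 stellate cell genes 11 had negative slopes and Col1a1 and Col1a2 fell (-0.318 and -0.173), and without that mouse 3 were called lower. Of 11 endothelial genes 10 had negative slopes and 0 were called by limma, with 6 at an unadjusted p under 0.05. The part of these in the slopes of Il2rb and Prf1 was not tested beyond the model with the array range.

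Zap70 did not follow the T cell genes from mouse to mouse. Its Spearman correlation with the mean of the other T cell genes was 0.02 over 48 mice (Pearson -0.04), where Ltb had 0.71, Cd3e 0.59 and Cd2 0.55. By the highest Spearman correlation over 48 mice, the 5 genes most like Zap70 were Gchfr (0.76), Gnmt (0.75), Gpt (0.74), Lncbate1 (0.73) and Hgd (0.73). Gnmt, Gpt and Hgd encode enzymes of glycine, alanine and tyrosine metabolism that hepatocytes carry. The lowest correlation was that of Stat6 (-0.76), chosen after the values were seen. These correlations are descriptions, and the points share arrays and diets.

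The second question was whether the genes differed with the exchange of carbohydrate for fat at constant protein. The slopes of the NK and cytotoxic genes lay mostly below 0, toward lower values where carbohydrate replaced fat, but no gene of the 16926 was called (0%, limma; 665 at an unadjusted p under 0.05). The exchange slope gives the difference in log2 value when 10 points of fat are swapped for carbohydrate. It was below 0 for 33 of the 37 members, namely 12 of 15 T cell genes, 14 of 15 NK and cytotoxic genes and all 7 B cell genes, against 47.9% of all genes. The medians were -0.051, -0.121 and -0.072, against 0.002 over all genes. At an unadjusted p under 0.05, 10 members had a negative slope (2, 7 and 1) and 0 a positive one, where 2.37% of all genes had a negative one; every adjusted p of a member was 0.999.

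Without the medium energy 14/29/57 mouse, whose diet was on the fat side, the medians were -0.038, -0.077 and -0.087. At an unadjusted p under 0.05, 7 members (1, 6 and 0) then had a negative slope, against 1.8% of all genes. The 3 medians kept their sign. In a fit on matched diet combinations, 1568 genes and 12 members were called, Ccl5 (-0.448, adjusted p = 8.32e-05) and Nkg7 (-0.305, adjusted p = 0.000638) first, and without that mouse 0 members were (Ccl5 -0.270, adjusted p = 0.578). That fit's calls thus rest on 1 mouse.

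Nkg7, whose upstream window is shown above, had the smallest p of the members. In the 2 mice on 5/20/75 it read 3.40 and 4.09, in the 4 on 5/48/48 3.11, 3.01, 2.79 and 2.47, and in the 4 on 5/75/20 2.11, 2.32, 3.32 and 2.50. Both mice on the most fat lay above all 4 on the most carbohydrate. At 14% protein and high energy the values were 2.34, 2.75, 2.50 and 3.44 on 14/29/57 and 2.58 and 2.92 on 14/57/29, which overlapped. At 33% protein and high energy they were 4.0 and 2.62 on 33/20/47 and 2.38 and 2.44 on 33/47/20. The exchange slope was -0.196 ± 0.056 (SE; unadjusted p = 0.000998, adjusted p = 0.999 by limma) and -0.159 ± 0.047 without the medium energy 14/29/57 mouse.

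Ccl5 showed the same order within each high energy pair. At 14% protein it read 5.24, 4.76, 5.09 and 5.59 on 14/29/57 against 3.60 and 4.14 on 14/57/29. At 33% it read 5.78 and 4.88 on 33/20/47 against 3.16 and 3.14 on 33/47/20. At 5% it read 5.62 and 4.99 on 5/20/75 against 4.21, 4.43, 4.67 and 3.94 on 5/75/20. The groups did not overlap in any of these 3 pairs. In the medium energy pair at 33% protein the values overlapped, with 3.41, 4.04 and 4.66 on 33/20/47 and 4.28 and 5.31 on 33/47/20. The means there stood in the opposite order, 4.04 on 33/20/47 and 4.80 on 33/47/20. The means of the gene sets in that pair did so too. On 33/20/47 and 33/47/20 they were -0.17 and -0.09 (T cell), -0.14 and -0.03 (NK and cytotoxic) and -0.11 and 0.04 (B cell). The slope over all mice was -0.248 ± 0.085 (SE; unadjusted p = 0.00547).

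Prf1 had -0.139 ± 0.043 (unadjusted p = 0.00224), Cxcr6 -0.084 ± 0.030, Ncr1, an activating NK receptor, -0.128 ± 0.052, the chemokine gene Xcl1 -0.192 ± 0.082 and Il2rb -0.120 ± 0.059. Tbx21 and Eomes, the transcription factors of the cytotoxic programme, had 0.0039 ± 0.035 and -0.039 ± 0.028. Of the T cell genes, Cd3g had -0.180 ± 0.070 and Ltb, the lymphotoxin beta gene, -0.126 ± 0.062, while Cd6, Cd4 and Cd27 lay slightly above 0 (0.019, 0.012 and 0.0048). Of the B cell genes, Cd22 had -0.105 ± 0.051, Cd79b -0.121 ± 0.065 and Ms4a1 -0.105 ± 0.059. None was called.

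**Figure D3:**
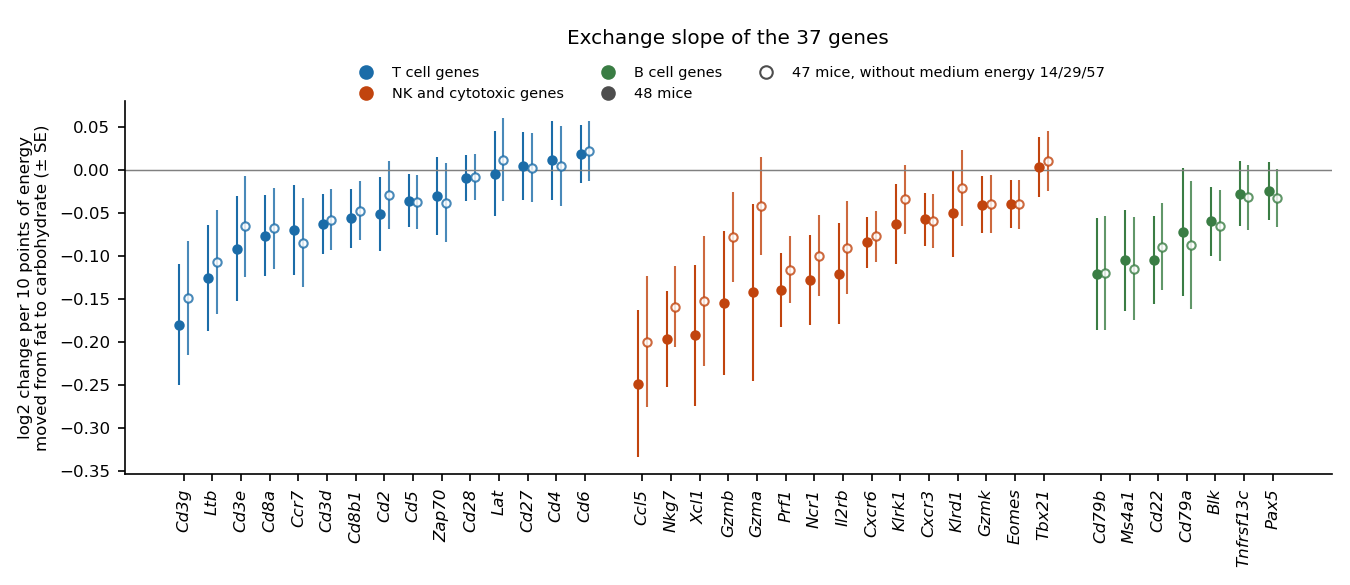
Exchange slope of each of the 37 genes (log2 change for 10 points of energy moved from fat to carbohydrate, ± SE), in 48 mice (filled) and without the medium energy 14/29/57 mouse (open). Of the 37 slopes 33 lie below 0 in 48 mice, from -0.248 for Ccl5 to 0.019 for Cd6; none was called.

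Genes of other cells had slopes of the same sign on this axis, none of them called. All 18 leukocyte genes (median -0.120), 16 of 17 Kupffer cell genes (median -0.146) and all 8 neutrophil genes tested (median -0.084) had negative exchange slopes. By limma 5, 3 and 0 of them were at an unadjusted p under 0.05. Without the medium energy 14/29/57 mouse the medians were -0.066, -0.079 and -0.013, and 5 of the 8 neutrophil genes were negative. The part of other leukocytes in the slopes of the lymphocyte genes was not tested.

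The widest contrast of carbohydrate and fat was 5/75/20 against 5/20/75, with 4 and 2 high energy mice. All 7 B cell genes, 13 of 15 NK and cytotoxic genes and 13 of 15 T cell genes had lower means on 5/75/20, with median differences of -0.638, -0.311 and -0.347 on the log2 scale against -0.006 over all genes. No member passed the threshold, nor did more than 11 of all genes (0.065%; 740 at an unadjusted p under 0.05). At an unadjusted p under 0.05, 9 members were lower on 5/75/20, where 2.81% of all genes were. Prf1 read 1.61, 1.29, 0.94 and 1.47 on 5/75/20 and 2.37 and 2.54 on 5/20/75, without overlap, a difference of -1.13 ± 0.27 (SE; adjusted p = 0.173 by limma). Cxcr3, a chemokine receptor of effector T and NK cells, read 1.51, 2.06, 1.72 and 1.38 against 2.58 and 2.48, also without overlap (-0.86 ± 0.22, adjusted p = 0.246). Il2rb read 2.06, 3.07, 3.54 and 3.26 against 4.33 and 3.98 (-1.17 ± 0.34, adjusted p = 0.407).

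The 3 T cell genes of smallest p in that contrast were Ltb (2.27, 2.44, 2.77 and 2.73 against 3.36 and 3.63), Ccr7, the homing receptor of naive T cells (2.42, 2.35, 2.62 and 2.49 against 3.30 and 3.35), and Cd3g (2.13, 3.05, 3.40 and 3.15 against 4.19 and 3.75). The groups did not overlap for any of them. Their differences were -0.94 ± 0.39, -0.86 ± 0.41 and -1.04 ± 0.50 (SE), each with an adjusted p of 1. Of the B cell genes, Cd22 read 2.34, 2.50, 2.72 and 2.38 against 3.29 and 3.76 (-1.04 ± 0.38, adjusted p = 0.804), and Cd79b 2.46, 2.0, 2.42 and 2.07 against 2.27 and 4.10. The Cd79b groups overlapped, and its difference of -0.94 ± 0.50 came from 1 of the 2 mice on 5/20/75. Without that mouse the median over the B cell genes was 0.0126, and without the other mouse on 5/20/75 it was -1.27. The median of the leukocyte genes in the same contrast was -0.636, with 17 of 18 below 0.

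**Figure D4:**
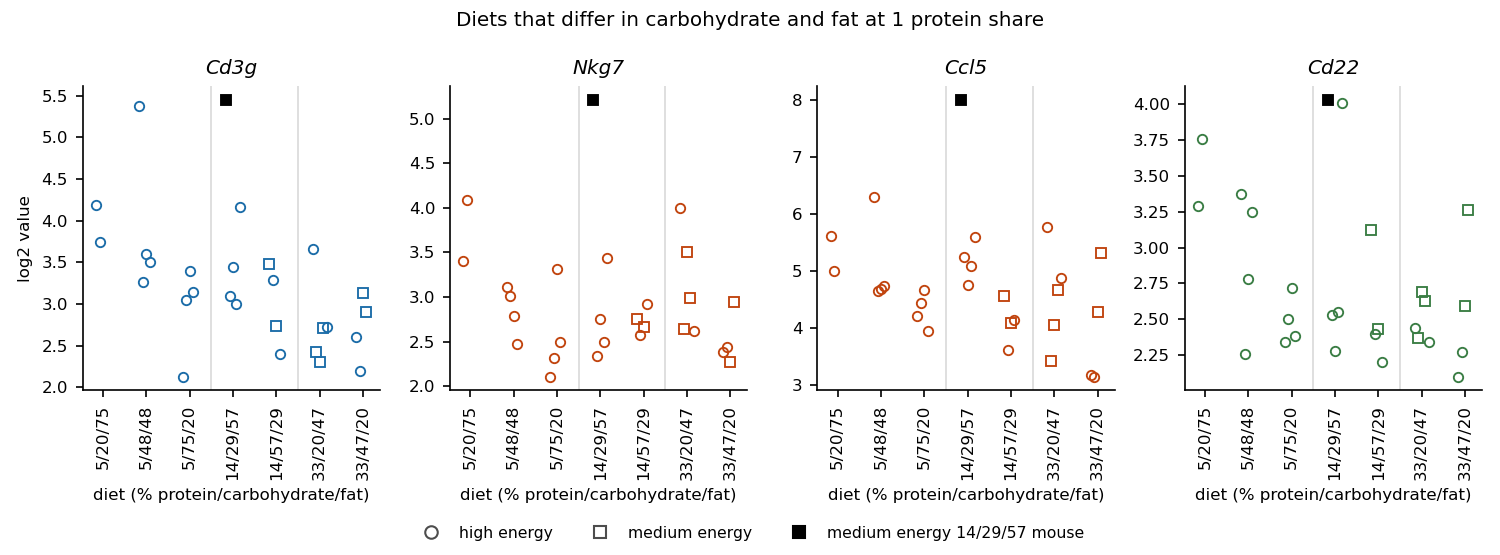
Log2 value of Cd3g, Nkg7, Ccl5 and Cd22 in each mouse on the diets that shared a protein share and differed in carbohydrate and fat; circles are high and squares medium energy, and the filled square is the medium energy 14/29/57 mouse. On 5/20/75 all 4 genes lie above their values on 5/75/20.

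The medium energy 14/29/57 group held 1 mouse. Among the 37 members, that mouse stood apart from the other 47 mainly in the NK and cytotoxic genes. It was the highest of 48 mice for 9 of 15 NK and cytotoxic genes (60.0%). For 3 of 15 T cell genes (20.0%) and 1 of 7 B cell genes (14.3%) it was highest too. Together these were 13 of 37 (35.1%), where it was highest for 2655 of 16926 genes (15.7%). The T and B cell shares lay near that over all genes. Of other immune cell genes it was highest for all 18 leukocyte, 16 of 17 Kupffer cell, 9 of 10 neutrophil and 0 of 8 dendritic cell genes. With 1 mouse in the group there is no replicate and no test of its diet. Gzma, which encodes granzyme A, read 7.39 against 0.59 to 3.51 in the other 47 mice (median 1.09). As the other mice lay near the low end of the scale, no fold is given. Gzmb, granzyme B, read 6.94 against 1.62 to 4.32 (median 2.06), and Ccl5 8.01 against 2.45 to 6.30 (median 4.55). Nkg7 read 5.21 against 1.77 to 4.09, Xcl1 4.84 against 1.19 to 4.33 and Il2rb 4.94 against 1.87 to 4.58. All of these lay above every other mouse.

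The NK receptor genes Klrd1 (3.12 against 0.71 to 2.39), Klrk1, which encodes NKG2D (3.14 against 0.84 to 2.63), and Ncr1 (3.88 against 1.01 to 3.24) were also highest in that mouse. Its Prf1 value of 2.97 was the second highest of 48. Other cytotoxic genes did not share this: Gzmk read 1.62 against a median of 1.45, Eomes 1.61 against 1.50 and Cxcr3 1.86 against 1.84. Over the 15 NK and cytotoxic genes, the difference from the mean of the other mice had a median of 1.87 and ran from 0.04 to 6.18.

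Of the T cell genes, Cd3e (5.43 against 2.46 to 5.28), Cd3g (5.45 against 2.13 to 5.38) and Cd2, an adhesion receptor of T and NK cells (3.23 against 1.33 to 2.93), were highest in that mouse. Cd4 read 1.84 against a median of 2.09, Ccr7 2.20 against 2.65 and Zap70 2.50 against 2.89, all within the range of the other mice. The median difference of the 15 T cell genes was 0.52. Of the B cell genes, Cd22 alone was highest (4.03 against 1.96 to 4.02), while Pax5, the master regulator of B cell identity, read 1.29 against 1.25 to 2.66. The median difference of the 7 was -0.26.

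**Figure D5:**
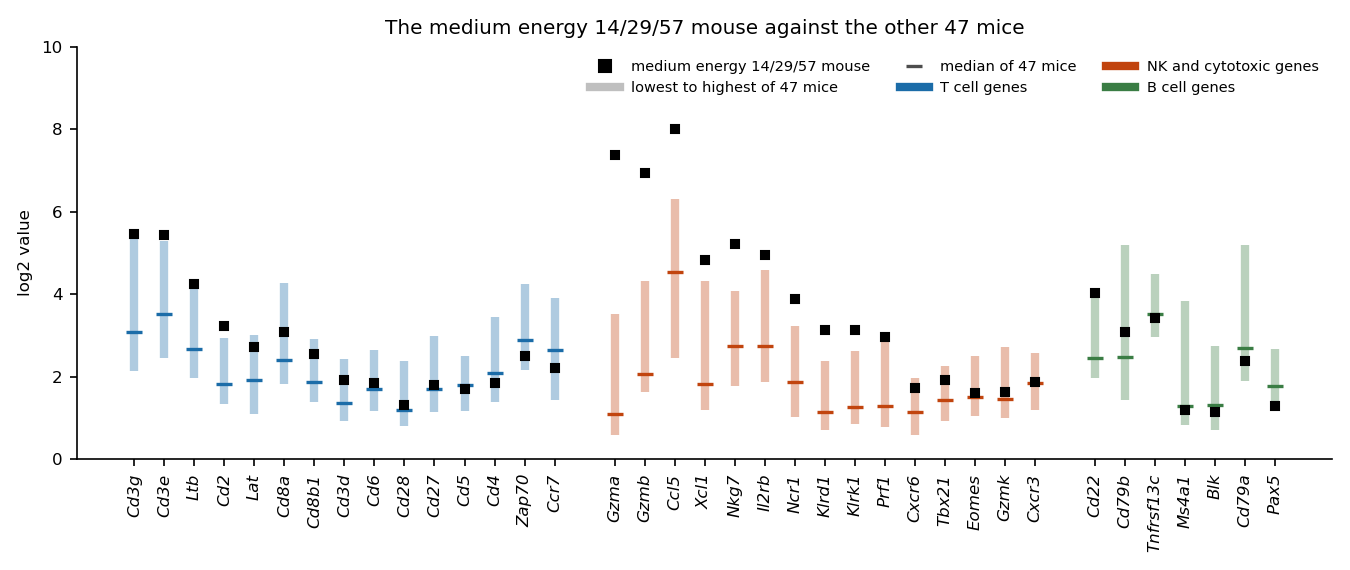
Log2 value of each gene in the medium energy 14/29/57 mouse (squares) against the lowest to highest value (bars) and median (ticks) of the other 47 mice, by gene set. The squares of Gzma, Gzmb, Ccl5, Xcl1, Nkg7 and Il2rb stand above the bars; those of the B cell genes apart from Cd22 lie within them.

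Genes of other cells were at their extreme in the same liver. It was highest for all 18 leukocyte genes, with a summed linear level of 7470 against 344 to 1270 in the other mice, for 16 of 17 Kupffer cell genes (27900 against 866 to 5230) and for 9 of 10 neutrophil genes (1070 against 25.6 to 54.9). It was the lowest for 6 of 10 hepatocyte genes (27400 against 38700 to 48800) and highest for 0 of 8 dendritic cell genes. Ly6g and Camp of the neutrophil list and Ccr9 of the dendritic cell list were below the filter over all mice; no gene of the other 3 lists was. The part of these in the values of the lymphocyte genes was not tested.

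The third question was the energy level. Between high and medium energy at equal composition slopes, 0 of 16926 genes were called (0%, limma; 1376 at an unadjusted p under 0.05), and 0 of the members. The median differences, high minus medium, were -0.082 for the T cell, -0.086 for the NK and cytotoxic and -0.100 for the B cell genes, against 0.007 over all genes. Without the medium energy 14/29/57 mouse they were -0.009, 0.021 and -0.121, so the NK and cytotoxic median changed sign. In the fit on matched combinations 1899 genes and 6 members were called (Ccl5, Cd22, Gzma, Gzmb, Il2rb and Xcl1), and without 14/29/57 2 genes and 0 members. Gzma had the largest difference of the NK and cytotoxic genes, -0.59 ± 0.33 (SE; adjusted p = 0.663). It read 0.69 to 2.87 at high energy (median 1.09, n = 29) and 0.63 to 7.39 at medium energy (median 1.11, n = 14), and the highest medium energy value without that mouse was 3.51. Cd22 had the smallest p of the B cell genes (-0.32 ± 0.16, adjusted p = 0.624) and Ccr7 of the T cell genes (-0.24 ± 0.17, adjusted p = 0.744).

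At 60/20/20, 3 low energy mice could be set against 3 high energy mice. No gene was called (0% of 16926, limma; 1710 at an unadjusted p under 0.05), and 0 members had an unadjusted p under 0.05. The medians of low minus high were 0.055, -0.010 and 0.128, against -0.033 over all genes. Cd22 read 2.07, 1.96 and 2.09 at low and 2.58, 2.45 and 2.44 at high energy, without overlap, for a difference of -0.45 ± 0.36 (SE; adjusted p = 0.668). Xcl1 read 1.34, 1.56 and 1.94 against 1.97, 1.41 and 3.37 (-0.63 ± 0.53, adjusted p = 0.682), and Cd3e 3.38, 3.34 and 4.14 against 3.58, 2.76 and 3.44 (0.36 ± 0.42, adjusted p = 0.778); both overlapped. Differences of this size are about that of their standard errors.

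Whether the exchange slope itself changed with protein was tested by an interaction term. It was called for 0 of 16926 genes (0%, limma; 652 at an unadjusted p under 0.05). The member medians were 0.020, 0.015 and 0.076 for 10 points of protein and 10 of exchange, against 0.002 over all genes. Cxcr3 had 0.070 ± 0.027 (SE; unadjusted p = 0.0118, adjusted p = 0.967), the only member with an unadjusted p under 0.05. Ltb had 0.099 ± 0.056 and Cd79b 0.103 ± 0.059.

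The rest of each pathway was read from 6 lists of genes outside the members, with 115 entries tested. With protein, 1 entry was called higher and 5 lower, where 7.01% of all genes were called, so the counts are near that background. At an unadjusted p under 0.05 by limma were 25 of the 115 entries, where 4510 of the 16926 genes were. With protein, 1 of 21 further T cell receptor and identity genes fell, Itgal, the alpha chain of the integrin LFA-1 (-0.237, adjusted p = 0.0471), and 0 rose; the receptor gene Il7r had -0.129 (adjusted p = 0.106). Of 19 activation and checkpoint genes 0 were called, with 3 at an unadjusted p under 0.05 (Maf -0.115, Cd69 -0.095 and Havcr2 -0.144). Of 21 further NK and granule genes 0 were called, with 3 at an unadjusted p under 0.05 (Cd7 -0.179, Zbtb16 -0.209 and S1pr5 0.161).

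Of 25 further B cell genes 2 fell with protein and 0 rose. They were Ly6d, a surface marker of B cell progenitors (-0.446, adjusted p = 0.0172), and Blnk, the adaptor below the B cell receptor (-0.247, adjusted p = 0.0279). Of 10 plasma cell genes Sdc1, which encodes syndecan-1 and is also made by hepatocytes, rose (0.106, adjusted p = 0.0235) and Derl3 fell (-0.209, adjusted p = 0.0459). Of 19 lymphocyte chemokine and cytokine genes 1 fell, Icam1, a ligand of LFA-1 (-0.185, adjusted p = 0.00429), and 0 rose; Vcam1 had -0.200 (adjusted p = 0.0831). Without the medium energy 14/29/57 mouse, Ly6d, Blnk, Sdc1, Derl3 and Icam1 were still called and Itgal was not. With the exchange of carbohydrate for fat 0 genes of these 6 lists were called by limma, and 19 of 115 entries were at an unadjusted p under 0.05, all negative, where 2.37% of all genes were lower at that p. In the 47 mice without the medium energy 14/29/57 mouse it was 14 of 115, all negative, against 1.8%. The 19 included Ccl2, a monocyte chemokine (-0.234 ± 0.053, adjusted p = 0.449), Cd7 (-0.224 ± 0.067), Il2ra (-0.076 ± 0.027) and Cd180 (-0.185 ± 0.069).

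Within each set the genes agreed only loosely from mouse to mouse. The median Spearman correlation over pairs of genes was 0.18 for the T cell, 0.21 for the NK and cytotoxic and 0.25 for the B cell genes over 48 mice, with 90, 94 and 19 of 105, 105 and 21 pairs above 0. The set means followed each other more closely, with 0.72 between T cell and NK and cytotoxic genes, 0.64 between T and B cell genes and 0.50 between NK and cytotoxic and B cell genes. Outside the members, the genes most like the T cell mean were St8sia4 (0.68), Atp2a3 (0.64), H2-Ab1 (0.64), H2-Aa (0.62) and Gbp9 (0.62). For the NK and cytotoxic mean they were H2-Ab1 (0.82), H2-Eb1 (0.80), H2-Aa (0.79), Cxcl9 (0.76) and Cd7 (0.75), and for the B cell mean Jchain (0.69), Napsa (0.63), Iglv1 (0.59), H2-DMb2 (0.58) and Cyrib (0.56). These are descriptions over 48 mice that share arrays and diets.

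For 1 lead gene of each set, Cd3e, Nkg7 and Cd79a, 12 relations over mice were tested with 100000 permutations and Benjamini-Hochberg adjustment over the 12. Cd3e and Nkg7 had Pearson r = 0.59 and Spearman rho = 0.42 over 48 mice (permutation p = 4e-05 and 0.0037; adjusted 0.00042 and 0.0222). Without the 2 mice farthest from the median of Cd3e r was 0.45, within the high energy mice 0.51, within the 34 mice numbered under 300 0.70 and within the 14 numbered over 300 0.03. The relation was thus near 0 in the smaller block of numbers, which the labels do not explain. Cd3e followed the interquartile range of the array (r = 0.45, rho = 0.42, permutation p = 0.00128 and 0.00338, adjusted 0.00512 and 0.0222), with 0.45 without the 2 farthest and 0.47 within the high energy mice. Nkg7 did not (r = 0.05, rho = -0.02, permutation p = 0.729 and 0.896). Cd79a and the range had r = 0.32 and rho = 0.22 (adjusted permutation p = 0.0464 and 0.274).

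The Kupffer cell gene Clec4f followed Nkg7 (r = 0.56, rho = 0.38, permutation p = 7e-05 and 0.00832, adjusted 0.00042 and 0.0333), with r = 0.34 without the 2 farthest mice. With Cd3e it had r = 0.40 and rho = 0.19 (adjusted permutation p = 0.0123 and 0.304), and r = 0.12 without the 2 farthest mice, so that relation rests on them. Y-linked genes exceeded Xist in 24 of 48 arrays, so that measure falls into separate clusters and no pooled correlation is given for its 3 relations. Cd3e and Cd79a had r = 0.32 and rho = 0.21 (adjusted permutation p = 0.0464 and 0.274). Nkg7 and Cd79a (r = 0.05) and Clec4f and Cd79a (r = 0.23) had adjusted permutation p of 0.802 and 0.168.

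The 3 lead genes were instead compared between these clusters of arrays, a comparison chosen after the data were seen. Cd79a ran from 1.90 to 3.77 (median 2.44) in the 24 arrays with Y-linked genes above Xist and from 2.20 to 5.19 (median 2.90) in the other 24. The ranges overlapped, and the means differed by -0.60 (permutation p = 0.0035, two-sided, adjusted 0.0105 over 3 genes), or by -0.59 without the medium energy 14/29/57 mouse. Cd3e differed by -0.15 and Nkg7 by 0.03 (adjusted permutation p = 0.640 and 0.873). The clusters were spread unevenly over the protein shares, from 1 of 5 arrays at 42% to 4 of 6 at 60% with Y-linked genes above Xist, and the part of diet in the difference was not tested.

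Within each cluster the measure was correlated with the 3 genes, 6 relations in all. Cd3e had r = -0.56 and rho = -0.52 in the arrays with Y-linked genes above Xist (permutation p = 0.00428 and 0.00952, adjusted 0.0257 and 0.0571), and r = -0.38 without the 2 farthest. In the same arrays Cd79a had r = 0.43 and rho = 0.32 and Nkg7 r = -0.46 and rho = -0.13, each with an adjusted permutation p of 0.0759 for r. Without the 2 farthest, r was 0.52 for Cd79a and -0.07 for Nkg7. The medium energy 14/29/57 mouse, with the lowest measure of these arrays (2.48), was among the 2 farthest. No value without that mouse alone is given for these relations. In the other 24 arrays r lay between -0.11 and 0.06.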

How the data were processed

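Liver RNA of 48 mice was measured on 1 Affymetrix array each. The authors deposited a matrix of 41345 probe sets whose values, from -0.51 to 13.42, were read as log2. What the authors did to make these log2 values is not given in the sources used here. The labels do not give each mouse's sex.

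Of the probe sets 23521 carried 1 gene symbol and gave 22180 genes, of which 16926 had a mean above 1.17, the 30th percentile. limma 3.58.1 in R 4.3.3 fitted protein, the carbohydrate to fat exchange and energy to all 48 mice, with moderated variances and an intensity trend; 20 diet combinations served for pairwise contrasts. Calls used Benjamini-Hochberg adjusted p under 0.05. Permutation tests used scipy 1.17.1 in Python 3.11.15. The protein slope fit was tested on simulated data. Named by rule were members past the threshold, otherwise the 3 of smallest p in each set and comparison, up to 4 of each pathway list, and the 5 genes closest to each set mean. Other genes were named for their role or level after their values were seen. Members and lists were chosen with earlier results of these data known. Alternatives changed the filter, normalization, array weights, array-level terms, samples and left-out mice.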

Additional observations from a re-analysis of the deposited data

Results flagged for a closer look

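In each protein share of 5 to 10 mice, the highest and the lowest value of every gene and set mean was compared with its nearest neighbour against the spread of the share. Of 240 such tests 34 found a value set apart, where chance gives about 1 in 20 for a single test. The tests share mice, and the set means repeat their genes, so they are not independent. Of the 34, 10 came from the medium energy 14/29/57 mouse. The count is therefore not read as an excess over chance. The medium energy 14/29/57 mouse was set apart among the mice at 14% protein in 9 NK and cytotoxic genes. They were Ccl5 (8.01, next 5.59), Nkg7 (5.21, next 3.44), Gzma (7.39, next 2.24), Gzmb (6.94, next 3.26), Prf1 (2.97, next 1.81), Klrd1 (3.12, next 1.92), Ncr1 (3.88, next 2.49), Il2rb (4.94, next 3.18) and Xcl1 (4.84, next 2.68). Its mean over that set was 1.96, with the next mouse at 0.32.

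A high energy mouse on 5/48/48 stood above the others at 5% protein in Cd8a (4.28, next 2.70), Cd6 (2.50, next 1.81), Cd28 (2.38, next 1.29), Gzma (2.87, next 1.13) and Klrd1 (2.32, next 1.49). A high energy mouse on 14/29/57 stood above the others at 14% in the B cell genes Ms4a1 (3.83, next 1.90), Cd79b (5.20, next 3.27) and Blk (2.75, next 1.56), and in the mean of the B cell set (1.58, next 0.15).

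At 33% protein single mice were set apart in Zap70 (4.25, next 3.55) and Gzmk (2.17, next 1.58), both in the same mouse. Others at that share were apart in Eomes (2.50, next 1.74), Blk (2.37, next 1.49), Cd79a (4.01, next 2.67) and the B cell mean (0.35, next -0.01). At 23% they were Cd4 (3.45, next 2.26) and Eomes (1.93, next 1.58). At 42% they were Gzmb (4.32, next 2.35) and Cd79b (3.94, next 3.08). At 60% they were Klrd1 (2.39, next 1.33) and Xcl1 (3.37, next 1.97), with Gzma low in 1 mouse (0.80, next 0.98). Cd28 was low in 1 mouse at 14% (0.79, next 1.07), and Klrk1 was high in 1 mouse at 5% (2.63, next 1.79).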

How the results depend on the processing

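No paired analysis was possible because each mouse number is unique. Of 417 comparisons of counts and medians with an alternative, 383 stayed within the limits set for them; of 802 for single genes and correlations 746 did. The cause of the other changes was not tested. For protein, 4301 genes and 7 members were called with array weights, 3652 and 7 with the logarithm of protein, 630 genes with the diet combination as a random block, and 1 member in high energy mice alone. With the array range as a term 113 genes and 0 members were called (B cell median -0.0431), with the Y-linked measure as well 133 and 0, and, added after seeing the data, with the range and without the medium energy 14/29/57 mouse 195 and 0 (-0.0443). For the exchange, array weights gave 2 genes, high energy mice alone 1 and matched combinations 1568 and 12 members (NK and cytotoxic median -0.185). For high against medium energy, matched combinations gave 1899 genes and 6 members (NK and cytotoxic median -0.253), without 14/29/57 2 genes; the Y-linked measure gave 2 and both terms 4. For low against high energy, weights gave 12 genes. For 5/75/20 against 5/20/75, the 50th percentile filter gave 7 genes (NK and cytotoxic median -0.990), quantile normalization 7, weights 105 genes and 2 members (Cxcr3 and Prf1), and the 6 mice alone 3. For the interaction, weights gave 1 gene, and high energy mice a B cell median of 0.0221.

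Leaving out each mouse in turn, protein calls ranged from 588 to 3004 genes and from 2 to 6 members. Zap70 and Il2rb were called in all 48 such fits and Prf1 was lost in 29. For 5/75/20 against 5/20/75 the range was 2 to 12 genes, 0 to 1 member and a B cell median of -1.27 to 0.0126. It was 0 to 3 genes for high against medium energy and 0 to 5 for low against high. Ms4a1 changed sign in the first of these (-1.33 to 0.0555), and Cd5 (-0.0789 to 0.462) and Klrd1 (-0.0709 to 0.746) in low against high energy. Single arrays, dim probe sets and groups of 1 to 4 mice limit the precision.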
